A study of Mus musculus with 15 samples.

Results

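The 500 clustered H3K27ac domains described here are the stretches of the NIH3T3 genome that carried the most H3K27ac reads in untreated cells. H3K27ac peaks lying within 12500 bp of each other on a chromosome were joined into stitched domains, and the 500 members were selected on the summed untreated reads of their peaks, as those with the most reads of 25622 stitched domains. They hold 9277 of 90682 H3K27ac peaks. NIH3T3 is an established mouse fibroblast line, and the study asked how its chromatin and transcripts differ after ultraviolet damage, in 15 samples. The irradiated cells were washed, exposed uncovered to 80 J/m2 of UV-C light at 254 nm, and kept for 6 h in fresh medium containing DMSO. The untreated cells received no irradiation, and the labels do not say whether they were washed or given DMSO. H3K27ac was measured by chromatin immunoprecipitation and sequencing (ChIP-seq) in 2 irradiated and 2 untreated samples, open chromatin by FAIRE-seq in 2 irradiated and 2 untreated samples, RNA by sequencing in 3 irradiated and 3 untreated libraries, and 1 input DNA sample served as the chromatin background. The chromatin tables give 1 pooled column per condition and assay, called the UV pool and the untreated pool here, so no chromatin value below has a spread between samples or a replicate check.

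Acetylation of lysine 27 on histone H3 is deposited at active promoters and active enhancers by acetyltransferases such as p300 and CBP. Some genomic stretches hold many such sites in close succession, and clusters of this kind are known for lying near genes that are highly expressed in, and often characteristic of, a given cell type. FAIRE recovers DNA that is poorly crosslinked to protein, which marks nucleosome-depleted regulatory sites. Ultraviolet light of this kind forms pyrimidine dimers in DNA, which stall RNA polymerase and activate stress kinase signalling.

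The domains were long, and much of their acetylation sat in a few peaks. They spanned 3718 to 237115 bp with a median of 57730.5 bp, against a median of 2049 bp over all stitched domains. Each held 3 to 74 peaks with a median of 17, against a median of 2 peaks over all stitched domains. Together the domains spanned 32.4 Mb, and the peaks inside them covered 5.93 Mb or 18.3% of that span. The members held 3274562 of 17852404 peak reads in the UV pool and 3096126 of 15525272 in the untreated pool, which are shares of 18.3% and 19.9%. The strongest peak of a domain held a median of 29.4% of its reads in the UV pool and 26.0% in the untreated pool. A median of 3 peaks was enough to reach 50% of a domain's untreated reads, and the number ranged from 1 to 12. In 311 of the 500 domains (62.2%) the same peak was the strongest in both pools.

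The rule took the members from the untreated reads, so their H3K27ac levels and ratios are a description and carry no test. Just inside the limit, the domain at rank 498 (chr8:97311435-97337142, build mm9, as are all positions here) had 2661 reads in the UV pool and 3829 in the untreated pool. Rank 499 had 10644 and 3826 reads, and rank 500 (chr3:67253737-67328466) had 1451 and 3826, in the same order of pools. Just outside, rank 501 (chr15:75738851-75772300) had 4630 UV and 3816 untreated reads, rank 502 (chr8:129349663-129377120) had 5906 and 3810, and rank 503 (chr10:67584970-67641067) had 7849 and 3805. Neighbours at the limit thus had nearly equal untreated reads and very different UV reads.

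A few stretches in the list had unusually many reads in the input DNA, where no antibody was used. The input gave 116316 reads per kb of peak in the domain at rank 2 (chr2:98502298-98507533), 783 at rank 7 (chr11:3023085-3112901) and 8024 at rank 233 (chr9:2999943-3038278). In the other domains the input gave 18.7 to 54.8 reads per kb of peak. Their log2 enrichment of H3K27ac over input, on the authors' scale with 16 reads added, was below 1 in the untreated pool, whereas the other 497 domains had 2.90 to 5.65. These 3 domains stayed in the list because the rule puts them there. Results are given without them where they differ.

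Across the 500 domains, the UV and untreated pools had nearly the same typical level of H3K27ac, with many domains higher and many lower after UV. Domains had 638 to 31283 reads with a median of 5573 in the UV pool, and 3826 to 27615 reads with a median of 5218 in the untreated pool. The log2 ratio of UV over untreated reads, scaled by the depth ratio of 1.01 implied by the authors' input scales, had a median of -0.02 with a 95% interval of -0.08 to 0.04 over domains. The ratio ranged from -3.02 to 1.95, and the middle 50% of domains lay between -0.45 and 0.40. H3K27ac was at least 1.5-fold higher in 81 domains (16.2%) and at least 1.5-fold lower in 102 (20.4%). Over all 16606 stitched domains of 200 or more reads, the shares were 26.8% higher and 19.1% lower. The rule used the untreated reads, which enter these ratios, and these shares are only set side by side. At 2-fold, 23 domains were higher and 47 were lower, beside 13.9% higher and 9.51% lower of those stitched domains.

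Scaling and ranking set where the middle of this distribution lies. Scaled by the sum of reads over all peaks, the median was -0.21, with 50 domains at least 1.5-fold higher and 143 at least 1.5-fold lower. On that scale the stitched domains of 200 or more reads had a median of -0.06, with 19.9% higher and 25.9% lower. Scaled by the reads in the 3 high-input domains, 56 of the 500 were higher and 134 lower, beside 21.1% higher and 24.4% lower of the stitched domains. Ranks 501 to 1000 had nearly the same distribution as the 500, with a median log2 ratio of -0.04, 86 domains higher and 102 lower by 1.5-fold. When the same stitched domains were ranked by UV reads instead, the median of that list was 0.54.

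**Figure D1:**
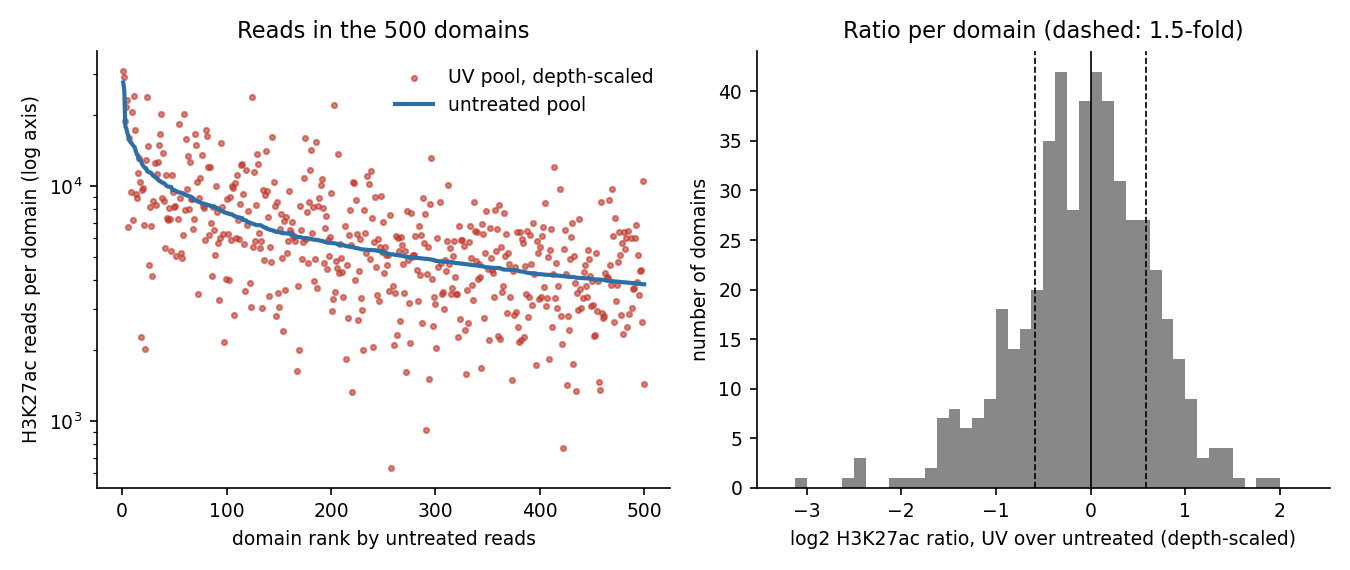
Left, H3K27ac reads per domain (log axis) against rank by untreated reads, with the UV pool divided by the depth ratio as points and the untreated pool as a line. Right, the number of domains by log2 ratio of UV over untreated reads, with dashed lines at 1.5-fold: points lie on both sides of the line over the whole range of ranks, and 81 domains lie beyond the upper and 102 beyond the lower dashed line.

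Of the 500 domains with the most UV reads, 325 (65%) were also among the 500 with the most untreated reads. The 175 domains in the UV list alone had a median log2 ratio of 0.98, and the 175 in the untreated list alone had a median of -0.58, and the signs of both follow from how the lists were made. Of the first 100 domains by untreated reads, 92 were among the first 500 by UV reads. Among these 100, 13 were at least 1.5-fold higher and 23 at least 1.5-fold lower. The shares were 16.2% and 20.4% of the 500 domains, and 26.8% and 19.1% of all stitched domains of 200 or more reads. The largest fall in rank was from the list to position 7738 of the UV ranking, and a domain of the UV list stood as low as position 4613 in the untreated ranking.

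Of the 10 domains with the most untreated reads, 3 lay on chromosome 19 and had more reads after UV. The first-ranked domain (chr19:8945450-9182564, 54 peaks) had 31283 UV and 27615 untreated reads, a log2 ratio of 0.17 (95% interval 0.14 to 0.19). This and the other intervals of single domains cover counting error only, since each condition has 1 pooled column. Sequencing reads made by PCR are not independent molecules, so the intervals may be too narrow even for that. The peaks of this first domain did not move as 1 unit: of 44 peaks with 50 or more reads, 20 were higher and 24 were lower. Rank 4 (chr19:5770295-5850192) had 21954 UV and 17561 untreated reads, a log2 ratio of 0.31, with 19 peaks higher and 9 lower. Rank 5 (chr19:5417512-5530159) had 23493 UV and 16772 untreated reads, a log2 ratio of 0.47. Inside rank 5 the strongest peak changed places. The strongest peak in the UV pool (chr19:5447862-5449816) had 6225 UV and 1841 untreated reads, a log2 ratio of 1.74. The strongest peak in the untreated pool (chr19:5473959-5475821) had 1155 UV and 2385 untreated reads, a log2 ratio of -1.06. Opposite movements of peaks in 1 domain thus partly cancelled in its sum.

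Rank 3 (chr17:35932125-36055766) showed the same kind of mixture with almost no net change. It had 19016 UV and 18008 untreated reads, a log2 ratio of 0.07, with 15 peaks higher and 15 lower. Its strongest peak in the UV pool (chr17:35958609-35959956) had 3007 UV and 1225 untreated reads. Rank 9 (chr15:77606987-77777028) had 20803 UV and 15251 untreated reads, a log2 ratio of 0.44, and 37 of its 47 peaks with 50 or more reads were higher.

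The other domains among the first 10, apart from those of high input, were lower after UV. Rank 6 (chr12:111187981-111408325, 58 peaks) had 6735 UV and 16364 untreated reads, a log2 ratio of -1.29 (-1.33 to -1.25). There, 38 of 42 peaks with 50 or more reads were lower, 32 of them at least 2-fold. Over all 60657 H3K27ac peaks of 50 or more reads, 19.4% were at least 2-fold higher and 17.5% at least 2-fold lower. The peak strongest in untreated cells (chr12:111360133-111361177) had 189 UV and 1381 untreated reads, a log2 ratio of -2.87. The peak strongest after UV (chr12:111383867-111384901) had 1026 UV and 977 untreated reads, a log2 ratio of 0.06. A broad reduction in this domain therefore spared at least 1 strong peak. Rank 8 (chr17:84424757-84552429) had 9547 UV and 15376 untreated reads, a log2 ratio of -0.70, with 27 of 29 peaks lower. Rank 10 (chr5:65194651-65275812) had 7257 UV and 15001 untreated reads, a log2 ratio of -1.06, with 22 of 24 peaks lower. The strongest untreated peak of rank 10 (chr5:65267626-65269039) had 564 UV and 2427 untreated reads. Its strongest UV peak (chr5:65202833-65204562) had 1832 UV and 2072 untreated reads.

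The domains with the highest ratios were higher at most of their member peaks, again counted over peaks with 50 or more reads. They were picked by the summed ratio of their peaks, so part of this agreement is built in. Rank 203 (chr17:6079183-6203642) had 22257 UV and 5719 untreated reads, a log2 ratio of 1.95 (1.91 to 1.99). All 28 of its peaks of that depth were higher, 22 of them at least 2-fold, and it stood at position 7 of the UV ranking. Rank 124 (chr1:40429807-40529912) had 24257 UV and 6950 untreated reads, a log2 ratio of 1.79, with 24 peaks higher and 4 lower. Rank 414 (chr17:75552621-75659017) had 12150 UV and 4174 untreated reads, a log2 ratio of 1.53, with 24 peaks higher and 5 lower. Rank 499 (chr15:27842375-27955700) had 10644 UV and 3826 untreated reads, a log2 ratio of 1.46, with 17 peaks higher and 1 lower. In rank 296 (chr15:61858994-61917067) all 17 peaks were at least 2-fold higher, and the summed reads were 13280 in the UV pool and 4872 in the untreated pool. More than 50% of those reads lay in 1 peak (chr15:61869167-61871730), with 6913 UV and 2647 untreated reads.

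At the other end, the 5 lowest domains, picked in the same way, were lower at all or all but 1 of their peaks with 50 or more reads. Rank 258 (chr6:50888072-50987669) had 638 UV and 5128 untreated reads, a log2 ratio of -3.02 (-3.14 to -2.90), and all 20 of its peaks of that depth were at least 2-fold lower. Its strongest untreated peak (chr6:50906619-50907486) had 44 UV and 594 untreated reads. Rank 22 (chr2:131462522-131549023) had 2049 UV and 11924 untreated reads, a log2 ratio of -2.55, with 25 of 26 peaks lower. Rank 18 (chr5:110923012-111041076) had 2304 UV and 12873 untreated reads, a log2 ratio of -2.49, with all 31 peaks lower. Rank 422 (chr3:151542490-151574073) had 775 UV and 4145 untreated reads, with all 10 peaks lower. Rank 291 (chr11:94731666-94744725), the shortest of the 5 at 13.1 kb, had 925 UV and 4905 untreated reads, with all 6 peaks lower. Even the peak strongest after UV was lower in each of these 5 domains: it had a log2 ratio of -1.62 in rank 258, -1.41 in rank 22, -2.45 in rank 18, -2.03 in rank 422 and -2.80 in rank 291.

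**Figure D2:**
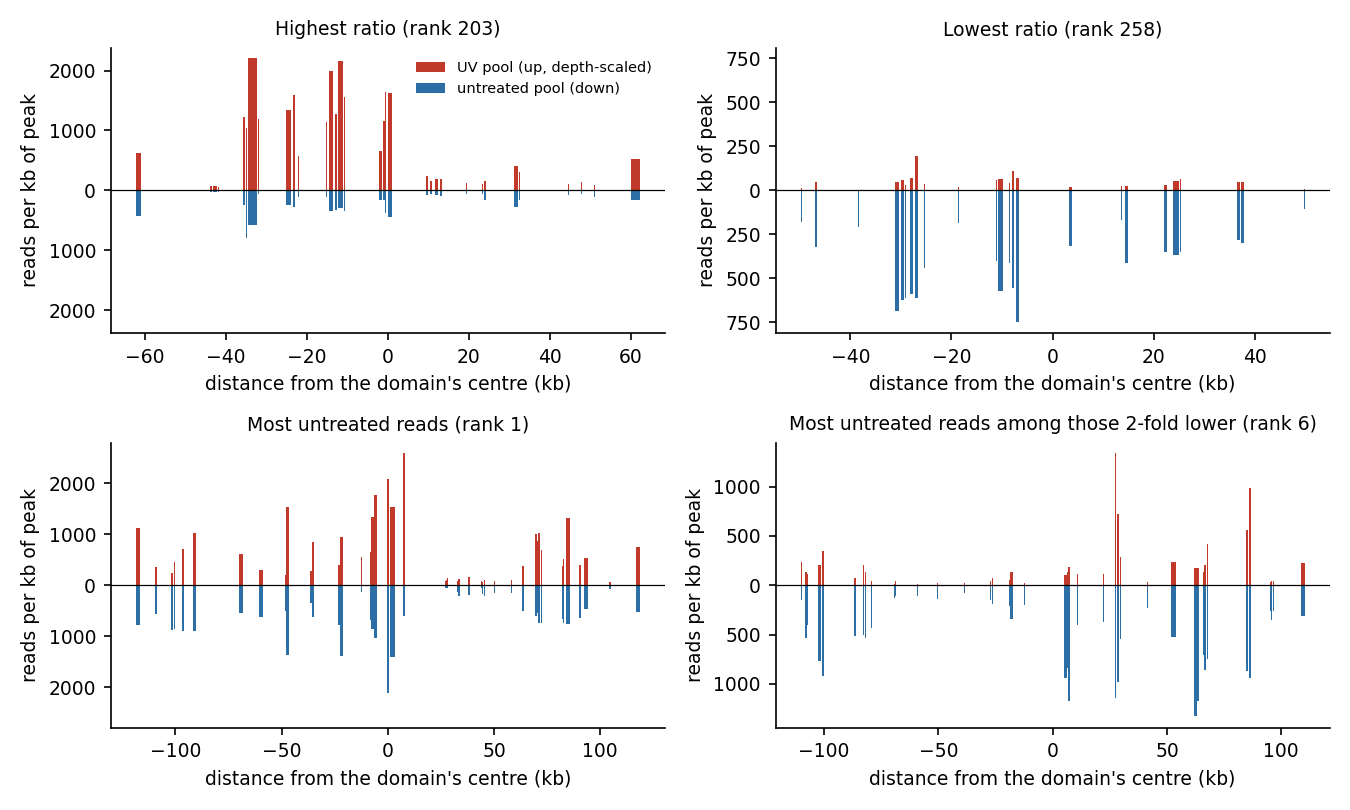
H3K27ac reads per kb of each member peak (bars as wide as the peaks) against distance from the domain's centre in kb, for 4 domains, with the depth-scaled UV pool drawn upward and the untreated pool downward. Every peak of 50 or more reads is taller upward in rank 203 and taller downward in rank 258, while rank 1 shows both kinds and rank 6 is taller downward at 38 of 42 peaks.

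Agreement between the peaks of a domain was partial. Over peaks with 50 or more reads in both pools together, at least 80% of the peaks moved in the direction of their domain in 215 of 500 domains (43.0%, exact binomial interval 38.6 to 47.5%). All peaks moved together in 61 domains (12.2%). Agreement was concentrated in domains that changed. Among the 184 domains whose summed reads over these peaks changed at least 1.5-fold, 151 (82.1%) reached 80% agreement, against 64 of the other 316 (20.3%). A domain's ratio is made of the same peaks, so part of this difference is built into the measure.

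Setting each peak against the rest of its domain removes that overlap. Of 7766 peaks, 5490 (70.7%) had the same sign as the summed reads of the other peaks in their domain. The share was 85.0% for the 3056 peaks whose rest changed at least 1.5-fold. Full agreement was seen in 38 of the 103 domains at least 1.5-fold lower on these peaks and in 14 of the 81 at least 1.5-fold higher. At ranks 501 to 1000 it was seen in 54 of 100 lower and 25 of 85 higher domains. In the other stitched domains with at least 3 such peaks the counts were 946 of 1362 and 1061 of 1821. In 138 domains at least 1 peak of 200 or more reads was 2-fold higher and at least 1 was 2-fold lower. In 55 domains no peak of that depth changed 2-fold. Both counts depend on how many peaks a domain holds, and no share over other domains is given beside them. The standard deviation of the log2 ratios of the peaks in a domain, counting error included, had a median of 0.74. At ranks 501 to 1000, 40.3% of 486 domains reached 80% agreement, 20.2% had full agreement, and 67.9% of peaks had the sign of the rest. In the 6906 other stitched domains with at least 3 such peaks, the shares were 48.9%, 37.8% and 69.4%. These domains held fewer peaks each, and the part of that in the shares was not tested.

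The likeness of 2 peaks' responses fell with the distance between them, and it did so inside and across domain borders. For pairs of member peaks with 200 or more reads in 1 domain, the Pearson r of the log2 ratios was 0.79 below 2.5 kb (3426 pairs), 0.52 at 5 to 12.5 kb, 0.41 at 12.5 to 25 kb and 0.33 at 50 to 100 kb. For pairs in different domains of the list it was 0.38 at 12.5 to 25 kb (987 pairs) and 0.25 at 50 to 100 kb. Beyond 250 kb, up to 500 kb, it was 0.05. At each matched distance the r within a domain was slightly above that between domains. The share of pairs with the same sign did not always follow. It was 64.1% within and 64.5% between domains at 12.5 to 25 kb, and 54.2% and 55.3% at 100 to 250 kb. It was 62.1% and 56.8% at 25 to 50 kb, and 62.2% and 56.7% at 50 to 100 kb. Pairs share the same pools and each peak enters many pairs, so these values have no test.

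Of 90 neighbouring pairs less than 100 kb apart, 61 had ratios of the same sign, with a Pearson r of 0.49. Of 135 pairs at 100 to 1000 kb, 71 had the same sign, with a Pearson r of 0.06. Of 255 pairs farther apart, 139 had the same sign, with a Pearson r of 0.16, so the value did not fall further with distance.

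**Figure D3:**
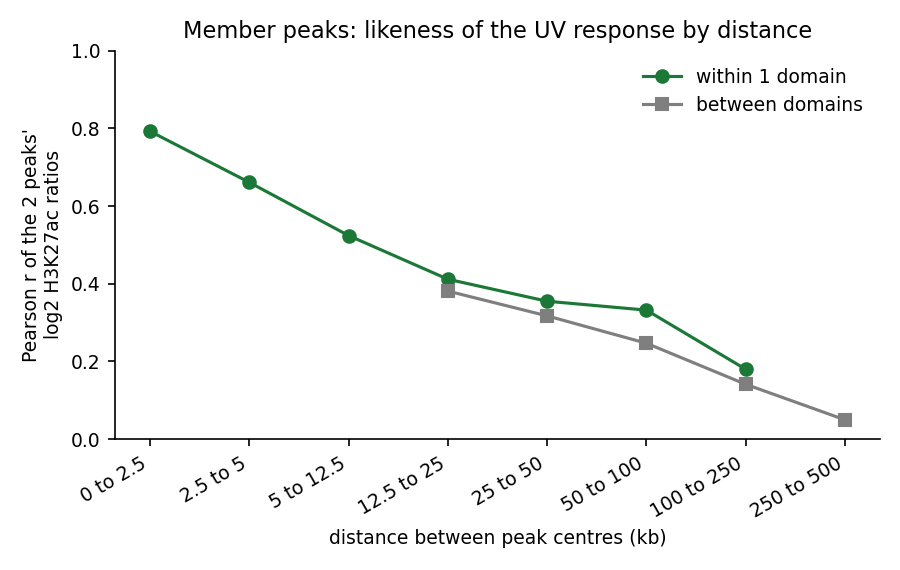
Pearson r of the log2 H3K27ac ratios (UV over untreated) of 2 member peaks against the distance between their centres in kb, for pairs in 1 domain (circles) and in different domains (squares). The curves fall together, with r at 0.79 below 2.5 kb and 0.05 at 250 to 500 kb.

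Peaks of high and of low score in a domain had different ratios. The authors' peak score, from peak calling on a merged list that contains both conditions, was used to order the peaks of each domain. The peak with the highest score had a median of 1251.5 UV and 1071 untreated reads and a median log2 ratio of 0.30 (interval over 500 peaks 0.21 to 0.39). Peaks at score ranks 2 and 3 had a median of 0.06, peaks at ranks 4 to 7 a median of -0.22, and peaks at rank 8 and lower a median of -0.26. The last class was weak, with a median of 82 UV and 97 untreated reads. Among the highest-scoring peaks, 70 of 500 were at least 2-fold higher and 34 at least 2-fold lower. At score rank 8 and lower, 695 of 4372 were at least 2-fold higher and 1236 at least 2-fold lower. Of the 7766 member peaks of 50 or more reads, 15.0% were at least 2-fold higher and 23.7% at least 2-fold lower, beside the 19.4% and 17.5% of all peaks given above.

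The order of these classes cannot change with a scaling of the pools, whereas the sign of a class near 0 can. The same order appeared at ranks 501 to 1000, where the 4 medians were 0.22, -0.08, -0.17 and -0.26. The untreated reads, which chose the domains, enter every one of these ratios. The merged score contains the UV reads too, and the same score ordered the peaks at ranks 501 to 1000. Part of the order may thus be built into the measure, and how much was not tested.

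Peaks that overlapped a FAIRE peak differed from those that did not. The 4401 peaks with such an overlap had a median log2 ratio of -0.07 and a median of 332 UV and 384 untreated reads. The 3365 peaks without it had a median log2 ratio of -0.26 and a median of 77 UV and 91 untreated reads. The classes thus differed in depth as well, and its part in the ratios was not tested. Ranks 501 to 1000 showed the same pattern, with medians of -0.04 for peaks with such an overlap and -0.26 for those without. The outermost peaks of domains with 5 or more peaks had a median of -0.18 (-0.29 to -0.11), and the inner peaks a median of -0.13 (-0.17 to -0.10). Less the ratio of their own domain, the medians were -0.11 for outermost and -0.12 for inner peaks, so no order by position is given.

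**Figure D4:**
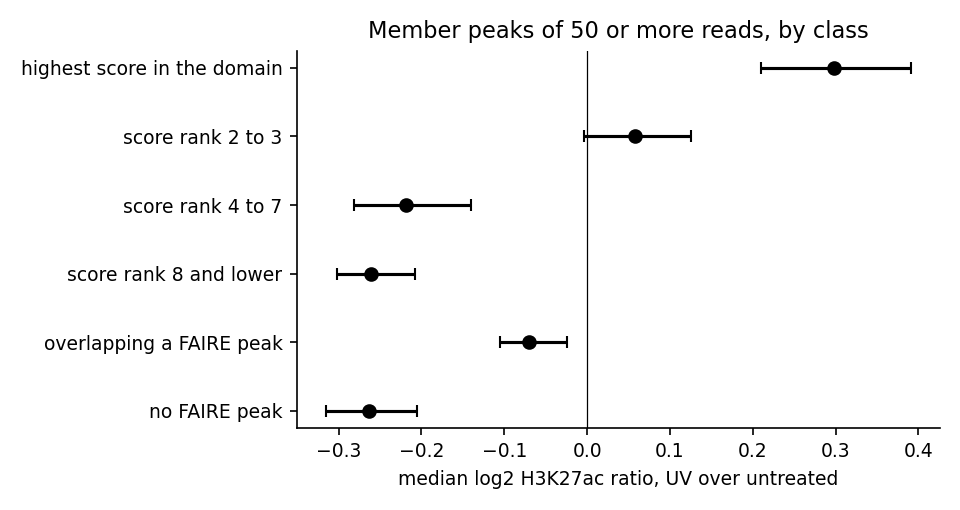
Median log2 H3K27ac ratio (UV over untreated) of member peaks with 50 or more reads, by score rank in the domain and by overlap with a FAIRE peak, with 95% binomial intervals of the median over peaks. The highest-scoring peaks lie at 0.30, score ranks 4 and lower at -0.22 and -0.26, and peaks without a FAIRE peak at -0.26.

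FAIRE reads did not enter the rule, and they were lower after UV in nearly all domains on the depth scale. The domains held 5040 of 56970 FAIRE peaks, with 2 to 50 and a median of 9 per domain, and 48.9% of the member H3K27ac peaks overlapped a FAIRE peak, against 44.3% of all H3K27ac peaks. FAIRE reads per domain had a median of 255.5 in the UV pool and 486.5 in the untreated pool. In the 493 domains with at least 200 FAIRE reads in both pools together, the log2 ratio, scaled by the FAIRE depth ratio of 0.803, had a median of -0.58 (interval over domains -0.61 to -0.54). It ranged from -2.40 to 0.45 and was above 0 in 17 domains. No domain was at least 1.5-fold higher and 245 were at least 1.5-fold lower, against 0.504% higher and 42.7% lower of 3968 stitched domains with that many FAIRE reads. With pooled columns there is no replicated test behind these counts.

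The level of this reduction was shared by the whole FAIRE data set and depends on the scaling. Over all 20691 FAIRE peaks of 50 or more reads the median log2 ratio was -0.47, and scaled so that this median is 0, the domains had a median of -0.11. On that scale 8 domains were at least 1.5-fold higher and 56 were lower, beside 5.14% higher and 9.83% lower of the stitched domains. Scaled by the sum over all FAIRE peaks, the domains had a median of -0.21, with 5 higher and 80 lower, beside 3.35% higher and 13.5% lower of the stitched domains. FAIRE peaks inside the domains had a median of -0.54 on the depth scale, those in other stitched domains -0.48, and those in no stitched domain -0.34. Domains at ranks 501 to 1000 had a median of -0.56. The 3 domains with high input had FAIRE log2 ratios of -0.03, -0.05 and -0.05, close to 0. They also held most FAIRE reads of the list: without them, the domains' share of FAIRE peak reads was 8.62% in the UV pool and 9.89% in the untreated pool, against 24.9% and 22.7% with them.

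FAIRE and H3K27ac moved together from domain to domain. In the 80 domains of 200 or more FAIRE reads with H3K27ac at least 1.5-fold higher, the median FAIRE log2 ratio was -0.20, and 15 were above 0. In the 316 domains within 1.5-fold it was -0.58. In the 97 domains with H3K27ac at least 1.5-fold lower it was -1.003, and none was above 0. Across the 493 domains the Pearson r of the 2 ratios was 0.83 and Spearman's rho was 0.80. At ranks 501 to 1000 the Pearson r was 0.78 over 467 domains. These correlations are descriptions across regions of the same 4 pools, not across samples.

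The named domains show the extent of this relation. Rank 296 had 593 UV and 539 untreated FAIRE reads, a log2 ratio of 0.45 (0.28 to 0.63), and rank 203 had 674 and 629 reads in the same order, a log2 ratio of 0.42 (0.26 to 0.58). Rank 414 had 436 UV and 445 untreated FAIRE reads, rank 124 had 782 and 827, and rank 186 (chr6:140483583-140605463), with an H3K27ac log2 ratio of 1.39, had 430 and 442. Their FAIRE log2 ratios were 0.29, 0.24 and 0.28. On the depth scale, rank 499 had higher H3K27ac with no FAIRE difference beyond counting error: it had 334 UV and 402 untreated FAIRE reads, a log2 ratio of 0.05 (-0.16 to 0.26). That ratio is above the median of -0.58 over the 493 domains. Scaling by the sum or the median of the FAIRE peaks raises every FAIRE ratio, so this reading is for the depth scale.

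Among the lowest, rank 22 had 95 UV and 623 untreated FAIRE reads, a log2 ratio of -2.40. Its strongest FAIRE peak (chr2:131532142-131532903) had 18 UV and 214 untreated reads. Rank 422 had 96 UV and 549 untreated reads, and rank 291 had 78 and 353, log2 ratios of -2.20 and -1.86. Rank 214 (chr5:118765883-118816006) had 102 UV and 447 untreated FAIRE reads, and rank 329 (chr17:49955113-50015758) had 104 and 440. The domain with the lowest H3K27ac ratio, rank 258, had 103 UV and 373 untreated FAIRE reads, a log2 ratio of -1.54. Among the first 10, the 3 domains with lower H3K27ac had FAIRE log2 ratios of -1.33 at rank 6, -1.08 at rank 8 and -1.11 at rank 10. The 5 others apart from the high-input domains lay between -0.48 and -0.31.

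**Figure D5:**
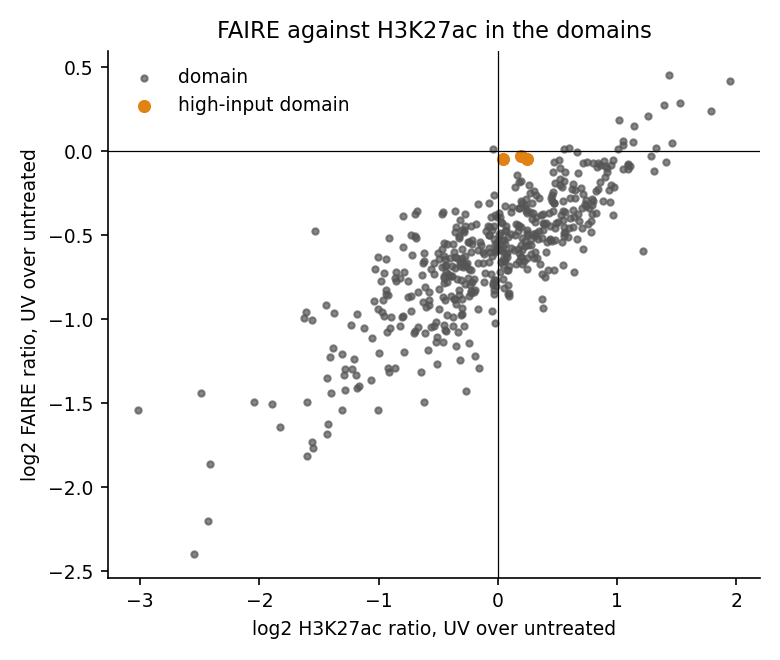
Log2 ratio of FAIRE reads against log2 ratio of H3K27ac reads, UV over untreated, depth-scaled, for 493 domains with 200 or more FAIRE reads, with the 3 high-input domains marked. The points rise together (Pearson r 0.83), and 17 domains lie above a FAIRE ratio of 0.

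FAIRE peaks were lower after UV both on the acetylated peaks and between them, on the depth scale. Of the FAIRE peaks in the domains, 4233 (84.0%) overlapped a member H3K27ac peak, and those with 50 or more reads had a median log2 ratio of -0.55 (-0.57 to -0.52). The 807 others lay in the gaps between member peaks, and the 235 of them with 50 or more reads had a median of -0.39 (-0.55 to -0.29). The difference between these classes was not tested.

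The H3K27ac ratios are also given by length and by chromosome, as a description without a test. The 167 longest domains had a median H3K27ac log2 ratio of 0.03 (-0.07 to 0.17), with 36 at least 1.5-fold higher and 29 lower. The 167 shortest, of up to 45400 bp, had a median of -0.11 (-0.24 to 0.02), with 19 higher and 38 lower. Both intervals over domains include 0, and they overlap. Beside these counts, 16.2% of the 500 domains were higher and 20.4% lower. Of all stitched domains of 200 or more reads, 26.8% were higher and 19.1% lower. Chromosomes 11 and 17 held 43 domains each, and the X chromosome held 1. Chromosome 19 held 34 domains, 6.8% of the list against 3.07% of all stitched domains. The median input per kb of peak in the domains was 45.8 on chromosome 19, 26.4 on chromosome 14 and 21.3 on the X chromosome, and the part of this unequal input in the numbers of domains was not tested by itself. When reads were divided by each chromosome's median input, 454 of the 500 domains were kept. Chromosome 1 had 11 domains at least 1.5-fold higher and 5 lower, and chromosome 6 had 3 higher and 11 lower. These chromosomes are picked examples. The shares of all their stitched domains that were higher or lower were not computed, so the counts stand beside the shares given above only. The median log2 ratio was 0.36 over the 30 domains on chromosome 1 and -0.34 over the 36 on chromosome 6. Over all stitched domains of these chromosomes it was 0.20 and 0.04. Chromosomes 13, 14 and 18 had still lower medians in the list, of -0.56, -0.70 and -0.48, over 7, 5 and 6 domains. The 1 domain on the X chromosome had -1.23.

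The RNA libraries, of 14211528 to 22032701 counts, served here as a check of the labelled cell type. All 12 fibroblast markers, among them the collagen gene Col1a1 and the intermediate filament gene Vim, reached a CPM (counts scaled to the library's total) of 1 in all 6 libraries, with summed levels of 24915 to 32678 CPM in UV libraries and 22090 to 25527 CPM in untreated libraries. Of the marker lists for other cell types, epithelial, haematopoietic and endothelial lists had 1 gene each at that level in all libraries. The epithelial list summed to 4.72 to 12.0 CPM in UV libraries and 6.73 to 14.0 CPM in untreated libraries, the haematopoietic list to 12.7 to 20.1 and 8.66 to 14.2 CPM, and the endothelial list to 4.77 to 23.3 and 10.5 to 22.4 CPM. The skeletal muscle and neural lists had 2 genes each, with sums of 17.3 to 63.5 and 8.94 to 15.3 CPM in UV libraries and 28.5 to 67.4 and 10.3 to 17.8 CPM in untreated libraries. The genes that lie in the domains, and the sequences of the domains, were not analysed here.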

How the data were processed

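All values start from processed tables of the series, and no reads were aligned here. The upstream tools, per the submitters' processing notes, were MACS2, DESeq2, TopHat and Bowtie 0.12.9 on build mm9, with roles not given in the sources used here. Chromatin read counts per peak were made by the authors and deposited as 1 pooled column per condition, with an input column. A header that names DMSO was read as the UV pool, since only the irradiated cells are described as receiving DMSO. The log2 enrichment values that the authors deposited compare reads with input reads times a scale, each after adding 16. The ratio of these scales in the authors' promoter tables (0.712 and 0.706 for UV and untreated H3K27ac, 0.528 and 0.657 for FAIRE) was taken as the depth ratio, since 1 scale, that of untreated cells, serves both pools in the peak tables. The peak score was deposited by the authors. RNA read counts per gene were deposited per library and were divided by their totals to give CPM. Another 8 columns of values were not used.

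Peaks were stitched at 12500 bp and ranked by summed untreated reads. A FAIRE peak belonged to the domain that holds its centre, and an overlap was at least 1 bp. The ratio of summed reads was divided by the depth ratio and put on the log2 scale, and 1 read was added for single peaks. Intervals are exact binomial (95%) and cover counting error, or order statistics over domains or peaks for medians. Intervals over peaks or domains take each as independent, whereas peaks or domains close together had similar ratios. They may therefore be too narrow. Named are the 10 domains with the most untreated reads, the 5 highest and 5 lowest by H3K27ac and by FAIRE ratio, and 3 on each side of rank 500; the high-input domains were singled out after their values were seen. The members, thresholds and marker lists were chosen with earlier results of these data known. The planned count of RNA changes for genes starting in the domains was not run, and neither was an alternative that needs gene starts, because gene positions in build mm9 were not used here. The calculation was tested on simulated data. Python 3.11.15, numpy 2.4.6, pandas 2.3.3, scipy 1.17.1 and matplotlib 3.10.9 were used.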

Additional observations from a re-analysis of the deposited data

How the results depend on the processing

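A turn of sign was labelled only for a median whose interval left out 0, which was the FAIRE median alone. No alternative turned the FAIRE median round. Of the recomputed values, 53 stayed within the interval of the main value or within 1.5 times the main count, while 31 moved further. The H3K27ac median log2 ratio moved to -0.11 with stitching at 5000 bp, 0.048 at 25000 bp, 0.54 ranked by UV reads, 0.28 ranked by the sum of both pools, -0.21 scaled by the sum over all peaks, and -0.17 scaled by the 3 high-input domains, so its sign depends on these choices. The FAIRE median log2 ratio was -0.65 at 5000 bp, -0.53 at 25000 bp, -0.37 ranked by UV reads, -0.46 ranked by the sum, -0.21 scaled by the sum over all peaks, -0.11 scaled to the median peak, and -0.73 with input subtracted. The domains at least 1.5-fold higher and lower in H3K27ac numbered 44 and 53 of 250 domains, 167 and 204 of 1000, 235 and 15 ranked by UV reads, and 166 and 50 ranked by the sum. Ranked by UV reads or by the sum, more domains were thus higher than lower, unlike the 81 and 102 of the main list. The higher and lower domains numbered 212 and 256 of the 1254 domains above the point where the ranked curve has slope 1. Scaled by the sum over all peaks, 50 were higher, and at 2-fold 23 were higher and 47 lower. Agreement of 80% of peaks was reached in 56.7% of domains at 5000 bp and 24.2% at 25000 bp, and of all peaks in 12.2%. The lists ranked by UV and by untreated reads shared 47.6% at 5000 bp and 76.6% at 25000 bp. The counts for 250, 1000 and 1254 domains come from lists of other lengths and were compared with the main counts as raw numbers. The 2-fold and all-peak settings are stricter by definition. The cause of the other shifts was not tested. The slope, high-input and chromosome-input alternatives were chosen after seeing the data. Leaving out the 3 high-input domains gave medians of -0.03 for H3K27ac and -0.59 for FAIRE.

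Each chromatin column pools 2 samples, which leaves no replicate to drop, and differences between cultures cannot be told apart from the treatment. No paired analysis was possible because the chromatin tables hold 1 pooled column per condition. Leaving out peaks near gene starts was not run, and neither were the RNA alternatives. FAIRE depth limits single domains: a median of 255.5 UV and 486.5 untreated reads.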
